A study of Mus musculus with 12 samples.

Results

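The genes described here are 9 endothelial genes (Cdh5, Eng, Pecam1, Flt1, Kdr, Tek, Tie1, Emcn and Egfl7) and the apelin receptor gene Aplnr, taken by symbol from the 54532 genes of the count and FPKM tables. All 10 were found once in each table and are protein-coding. On GRCm38 the tables placed Eng (ENSMUSG00000026814) at chr2:32646595-32682669 on the plus strand, and Aplnr (ENSMUSG00000044338) at chr2:85136225-85139923 on the plus strand. They placed Tek (ENSMUSG00000006386) at chr4:94739289-94874976 on the plus strand, Pecam1 (ENSMUSG00000020717) at chr11:106654217-106750628 on the minus strand, and Flt1 (ENSMUSG00000029648) at chr5:147561604-147726011 on the minus strand. The 10 genes were measured by RNA-seq in cells sorted from the testes of newborn male Tg(Pou5f1-EGFP)2Mnn mice, a line whose germ cells make green fluorescent protein (GFP) from the Pou5f1 promoter. Dexamethasone (dex), a synthetic glucocorticoid, was given at 10 μg per g of body weight to dams at E17.5 and E18.5 (embryonic days) and to the pups on postnatal day 0, and control animals received saline. Testes were collected on postnatal day 1, and GFP-positive cells (germ) were separated from GFP-negative cells (somatic), so that each treatment gave a germ and a somatic group (dex germ and dex somatic, saline germ and saline somatic), 4 in all with 3 libraries each. Each replicate pooled testes from litters that had been dosed separately. The GFP-negative fraction is all testis cells without the transgene signal, of which the endothelium is 1 part, and no endothelial marker was used in the sort.

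Endothelial cells line blood vessels. Cdh5 (VE-cadherin) and Pecam1 are adhesion proteins at their junctions, Flt1 and Kdr are receptors for vascular endothelial growth factor (VEGF), and Tek and Tie1 form the angiopoietin receptor system, in which Tek binds the ligands and Tie1 is a partner with no ligand of its own. Eng (endoglin) is a co-receptor for ligands of the BMP and TGF-beta family, Emcn (endomucin) is a sialomucin of veins and capillaries, and Egfl7 is a secreted matrix protein of the vessel wall. Aplnr is the G-protein-coupled receptor for apelin and is known from growing vessels and venous endothelium. Several of these genes are also used outside endothelium, Pecam1 in leukocytes, platelets and early germ cells among them.

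The stretches of DNA just upstream of 4 of the genes are shown because their transcripts behaved differently: Eng was higher and Tek lower with dex in somatic cells, and Flt1 and Kdr, receptors for the same ligand, stood on opposite sides in germ and somatic cells. Each is the 250 bases before the RefSeq start on GRCm38.p6, written 5′ to 3′ on the strand of the gene. Eng lies at chr2:32646345-32646594 on the plus strand, Tek at chr4:94739039-94739288 on the plus strand, Flt1 at chr5:147726012-147726261 on the minus strand and Kdr at chr5:75978456-75978705 on the minus strand. Capitals mark AGGAAG or its reverse complement, which contains the shorter GGAA core bound by ETS-family factors, regulators of many endothelial genes. GGAA or its reverse complement also occurs unmarked in all 4 windows, so a window without capitals is not a window without the core.
Eng: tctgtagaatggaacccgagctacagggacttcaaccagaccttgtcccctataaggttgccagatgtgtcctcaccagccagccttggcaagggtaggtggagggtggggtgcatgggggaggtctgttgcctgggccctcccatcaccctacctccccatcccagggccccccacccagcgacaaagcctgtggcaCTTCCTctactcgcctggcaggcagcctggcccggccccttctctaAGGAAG
Tek: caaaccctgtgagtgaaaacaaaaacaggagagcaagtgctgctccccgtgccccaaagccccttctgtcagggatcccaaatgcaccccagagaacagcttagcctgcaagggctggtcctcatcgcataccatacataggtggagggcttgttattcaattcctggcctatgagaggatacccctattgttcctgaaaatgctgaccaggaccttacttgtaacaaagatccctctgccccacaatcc
Flt1: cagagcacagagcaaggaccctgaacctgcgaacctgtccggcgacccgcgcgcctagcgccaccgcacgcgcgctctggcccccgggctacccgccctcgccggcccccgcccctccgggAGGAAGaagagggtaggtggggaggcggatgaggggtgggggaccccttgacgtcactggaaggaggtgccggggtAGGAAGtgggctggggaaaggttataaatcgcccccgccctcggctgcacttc
Kdr: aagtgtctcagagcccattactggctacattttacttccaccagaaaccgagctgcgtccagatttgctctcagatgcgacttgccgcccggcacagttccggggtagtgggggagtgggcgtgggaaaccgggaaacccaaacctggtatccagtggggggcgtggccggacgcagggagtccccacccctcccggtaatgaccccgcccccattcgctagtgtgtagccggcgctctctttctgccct
RefSeq gave 9 such windows for 7 of the 10 genes (Eng, Flt1, Kdr, Tek, Tie1, Emcn and Egfl7). AGGAAG was present on either strand for 5 of them (Eng, Flt1, Tie1, Emcn and Egfl7) and in 29.5% of all 32851 windows of this length. AGAACA, one arm of the element bound by the glucocorticoid receptor, was present for Tek and Egfl7 and in 16.1% of all windows. A gene was counted where any of its windows held the letters, and Egfl7 had several, while the percentages are per window. Binding was not measured in these samples, and a match describes only the letters.

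Library totals lay between 18459692 and 25178477 counts, so that a floor of 3 counts was worth 0.111 to 0.170 CPM (counts scaled to a common library size), counting error only. The 10 germ cell markers checked were all higher in germ than in somatic libraries of saline animals, and all 9 Sertoli cell markers other than Dmrt1 were lower. No 2 libraries of a group agreed within sampling noise. Values are given in CPM after TMM scaling over the 12 libraries as mean ± SD (n = 3), except where a level is compared between genes, which is done in FPKM, the deposited value per kilobase of gene length. A gene is called where the edgeR quasi-likelihood test gave a Benjamini-Hochberg adjusted p at or under 0.05 over all genes tested, and the error of a log2 fold change is its SE.

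The first question is at what level each of the 10 genes stood in the somatic libraries, and the levels differed widely. In saline somatic cells Cdh5 stood at 48.98 ± 3.76 FPKM and Eng at 35.5 ± 2.86 FPKM, and the libraries of Cdh5 lay above those of Eng. These levels exceeded those of 94.6% and 91.8% of the protein-coding genes with an FPKM above 0. The third gene, Pecam1, stood at 2.38 ± 0.325 FPKM, 14.9-fold below Eng and above only 40.6% of protein-coding genes. Egfl7 followed at 2.34 ± 0.668 FPKM, Aplnr at 1.71 ± 0.1996, Tek at 1.56 ± 0.410, Kdr at 1.27 ± 0.266 and Tie1 at 1.10 ± 0.474. From Pecam1 to Tie1 the libraries of each gene overlapped those of the next in this order. Emcn (0.489 ± 0.0786 FPKM) and Flt1 (0.163 ± 0.0769 FPKM) closed the order and were separate from their neighbours.

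**Figure D1:**
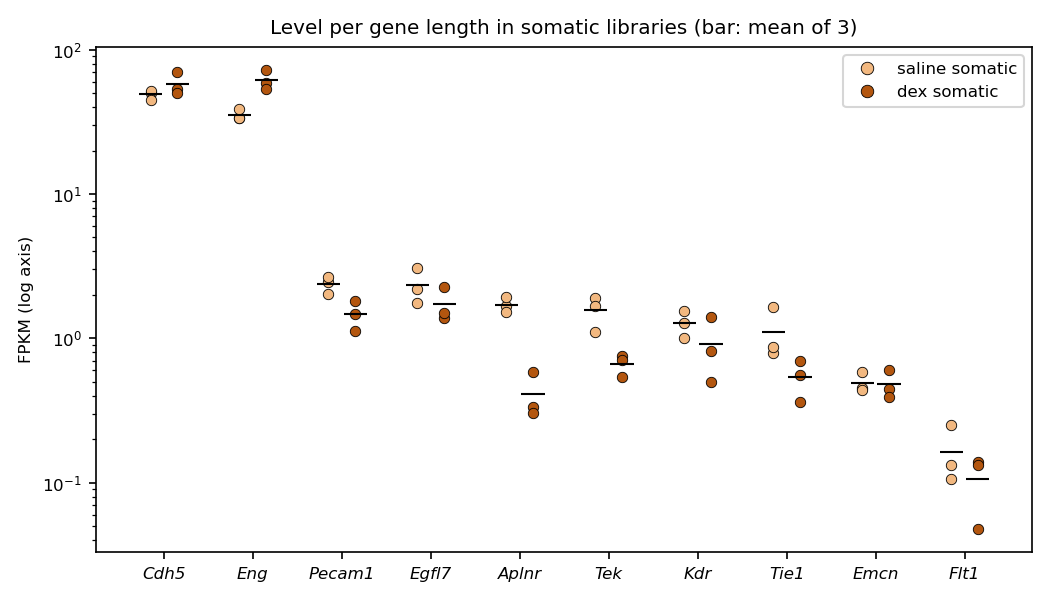
FPKM on a log axis in the 6 somatic libraries, with genes ordered by their mean in saline; points are libraries and bars the means of 3. Cdh5 and Eng lie at or above 33.8 FPKM in every library, and the other 8 genes at or below 3.07 FPKM.

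In dex somatic cells Eng came first at 61.5 ± 9.79 FPKM, overlapping Cdh5 at 57.7 ± 10.6 FPKM, and Cdh5 stood 33.5-fold above the next gene, Egfl7 (1.72 ± 0.487 FPKM). Aplnr moved from the fifth to the ninth place, at 0.409 ± 0.155 FPKM, and only Flt1 was lower. In germ cells the order was compressed at the top. With saline, Cdh5 (5.33 ± 0.544 FPKM), Eng (4.57 ± 0.159), Egfl7 (4.36 ± 0.340), Pecam1 (3.92 ± 0.266) and Flt1 (3.06 ± 0.402) lay within the same range of a few FPKM, and Aplnr was last at 0.0555 ± 0.0246 FPKM. With dex the first place in germ cells went to Eng (5.67 ± 0.244 FPKM), whose libraries overlapped those of Pecam1 (4.94 ± 0.584 FPKM), and Aplnr was again last at 0.00855 ± 0.0148 FPKM.

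**Figure D2:**
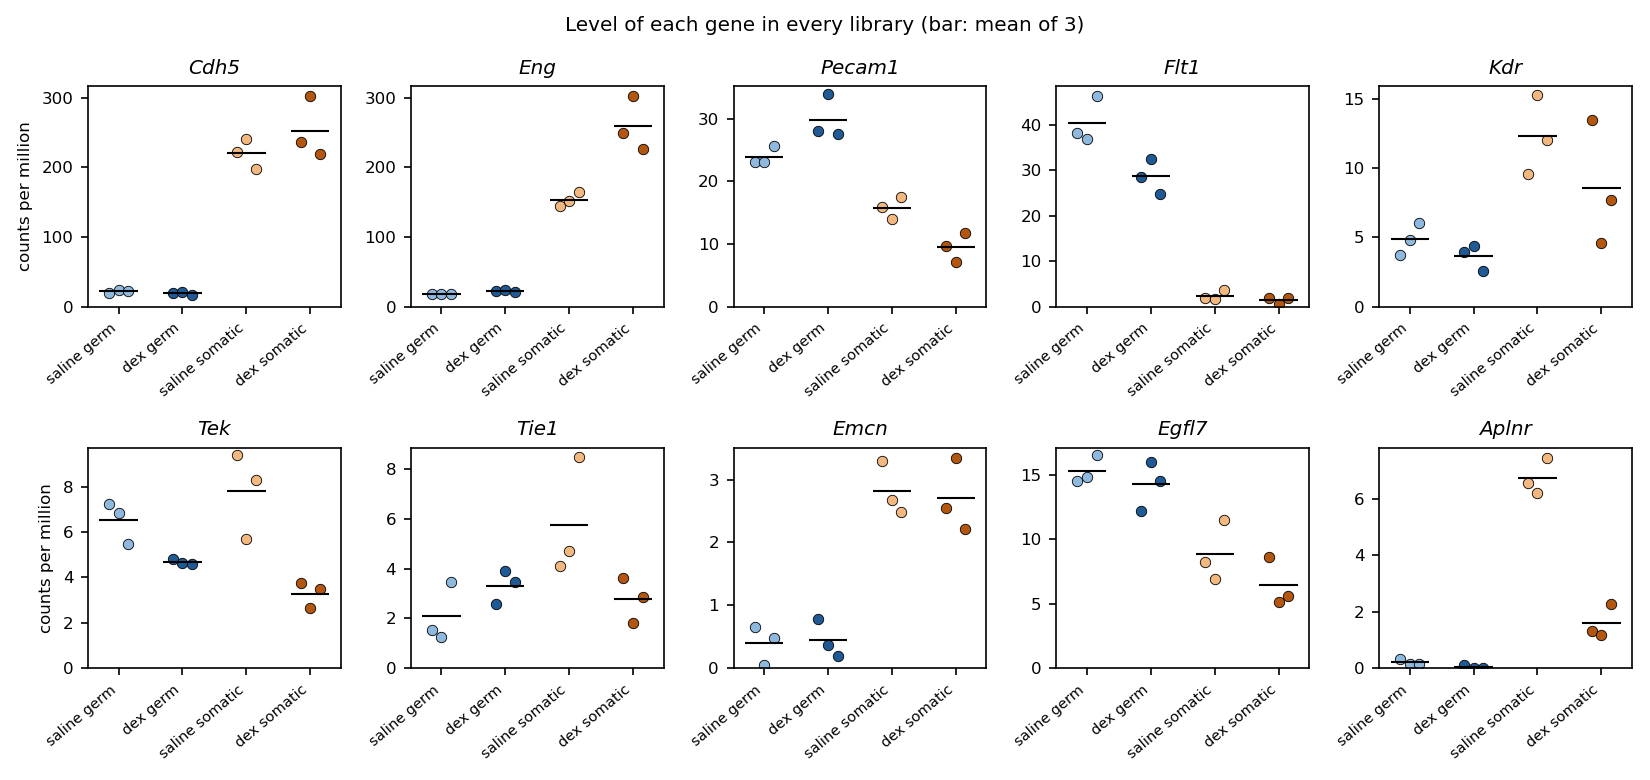
CPM of each of the 10 genes in every library, with a separate linear axis from 0 for each gene; points are libraries, bars the means of 3, and colours the 4 groups. Cdh5, Eng, Kdr, Emcn and Aplnr have higher means in somatic cells, and Pecam1, Flt1 and Egfl7 in germ cells, with either treatment.

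Setting germ against somatic cells asks in which sorted population each transcript was found. In saline animals 9 of the 10 genes were called, where edgeR called 76.5% of all 18870 genes tested. Of these, 3 were higher in germ cells (39.8% of all genes) and 6 lower (36.7% of all genes), and the median of the 10 log2 fold changes, germ over somatic, was -1.41, beside 0.07 for all genes tested. Germ and somatic libraries did not overlap for the same 9 genes, as for 79.7% of all genes (41.7% higher and 38% lower in germ cells). Flt1, Egfl7 and Pecam1 were the 3 that stood higher in the germ cell fraction.

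Flt1 differed most among them. It had 38.3, 36.98 and 46.3 CPM in the saline germ libraries and 1.88, 1.58 and 3.55 CPM in the saline somatic libraries. Every germ library was above every somatic library, by a log2 fold change of 4.12 ± 0.25 (edgeR adjusted p 2.1e-08), which was 17.4-fold on the mean CPM. Kdr, the other VEGF receptor, ran the opposite way, with 3.72, 4.84 and 6.05 CPM in germ and 9.59, 15.3 and 12.05 CPM in somatic libraries. Its groups did not overlap either, and it was lower in germ cells by a log2 fold change of -1.34 ± 0.25 (adjusted p 0.00035). Pecam1 was higher in germ cells by 0.60 ± 0.14 (23.9 ± 1.46 against 15.8 ± 1.77 CPM, adjusted p 0.0024) and Egfl7 by 0.78 ± 0.21 (15.3 ± 1.08 against 8.89 ± 2.36 CPM, adjusted p 0.0042). Egfl7 shares 64 of its 3581 exonic bases with Agpat2 and 58 with Mir126b on the other strand. The strand setting of the counting was not stated, so reads from those bases cannot be told apart. It also shares 264 bases with Gm20532 and 73 with Mir126a on the same strand, which no strand setting separates. Gm20532 had 0 counts in the libraries. Agpat2 itself was lower in germ cells, by a log2 fold change of -1.47 ± 0.19.

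Aplnr was close to the counting floor in germ cells. It had 7, 3 and 3 counts in the saline germ libraries against 129, 141 and 153 counts in the saline somatic libraries, and 2, 0 and 0 counts in dex germ against 23, 23 and 45 counts in dex somatic libraries. No germ library reached any somatic library. The depth-scaled ratio of the summed counts, somatic over germ, was 32.5 in saline (exact 95% counting interval 18.8 to 61.6) and 55.8 in dex (15.02 to 468).

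Cdh5 and Eng were also lower in germ cells but were not near the floor there. Cdh5 had 19.7, 24.01 and 22.2 CPM in saline germ libraries and 222, 241 and 197 CPM in saline somatic libraries, a log2 fold change of -3.33 ± 0.11 (adjusted p 7.8e-11), and the groups were far apart. Eng differed by -3.08 ± 0.10 (18.2 ± 0.655 against 153 ± 10.5 CPM, adjusted p 4.9e-11). Mean CPM in somatic cells was 10.01-fold and 8.44-fold that in germ cells for Cdh5 and Eng. The summed levels of other cells' markers differed between germ and somatic libraries to unequal extents. The 9 Sertoli cell markers other than Dmrt1 summed to 48.6 to 59.2 CPM in saline germ and 4333 to 4716 CPM in saline somatic libraries, and the 10 peritubular and stromal markers to 33.6 to 39.8 and 2582 to 3278 CPM. The 12 macrophage markers summed to 11.3 to 15.4 CPM in saline germ and 64.6 to 113 CPM in saline somatic libraries, a narrower margin. In saline germ libraries most of this sum was Mrc1 (6.13 ± 1.57 CPM) and Cd68 (3.72 ± 1.24 CPM). Of the 12 macrophage markers, all tested, 11 were called lower in germ cells and 0 higher. The 10 pericyte markers had a higher sum in germ libraries (635 to 708 against 478 to 549.8 CPM). In germ libraries most of that sum was Mcam, at 643 ± 40.1 CPM, against 109 ± 6.95 CPM in saline somatic cells. Of 9 pericyte markers tested, 7 were called lower in germ cells and 1 higher, where 36.7% and 39.8% of all genes were. The part of these cells in the levels of Cdh5 and Eng was not tested. Emcn (0.395 ± 0.310 against 2.82 ± 0.427 CPM, log2 fold change -2.79 ± 0.60, adjusted p 0.0011) and Tie1 (2.09 ± 1.21 against 5.77 ± 2.39 CPM, -1.47 ± 0.43, adjusted p 0.0078) were lower in germ cells as well. Tek was not called, at 6.51 ± 0.915 CPM in germ and 7.80 ± 1.89 CPM in somatic cells (log2 fold change -0.26 ± 0.25, adjusted p 0.35).

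In dex animals 8 of the 10 genes were called, where 76.3% of 18778 genes were, 3 higher in germ cells (40.5% of all genes) and 5 lower (35.7% of all genes). The median of the 10 was -0.49, beside 0.12 for all genes. The libraries did not overlap for 4 genes that were higher, with Tek as the addition, and 5 that were lower, as for 79.9% of all genes (42.6% higher and 37.4% lower). Flt1 (4.26 ± 0.30), Pecam1 (1.64 ± 0.19) and Egfl7 (1.15 ± 0.24) were again the 3 on the germ side, and Cdh5 (-3.73 ± 0.14), Eng (-3.55 ± 0.12), Emcn (-2.59 ± 0.57), Kdr (-1.23 ± 0.38, adjusted p 0.010) and Aplnr were on the somatic side. Kdr lost its call without dex germ replicate 3 (adjusted p 0.056) or without dex somatic replicate 1 (adjusted p 0.074), and with limma-trend on FPKM (0.063 and 0.059). Tie1 had 3.31 ± 0.678 CPM in dex germ and 2.77 ± 0.904 CPM in dex somatic cells (log2 fold change 0.26 ± 0.38, adjusted p 0.55), and Tek 4.67 ± 0.104 and 3.28 ± 0.576 CPM (0.51 ± 0.30, adjusted p 0.15).

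**Figure D3:**
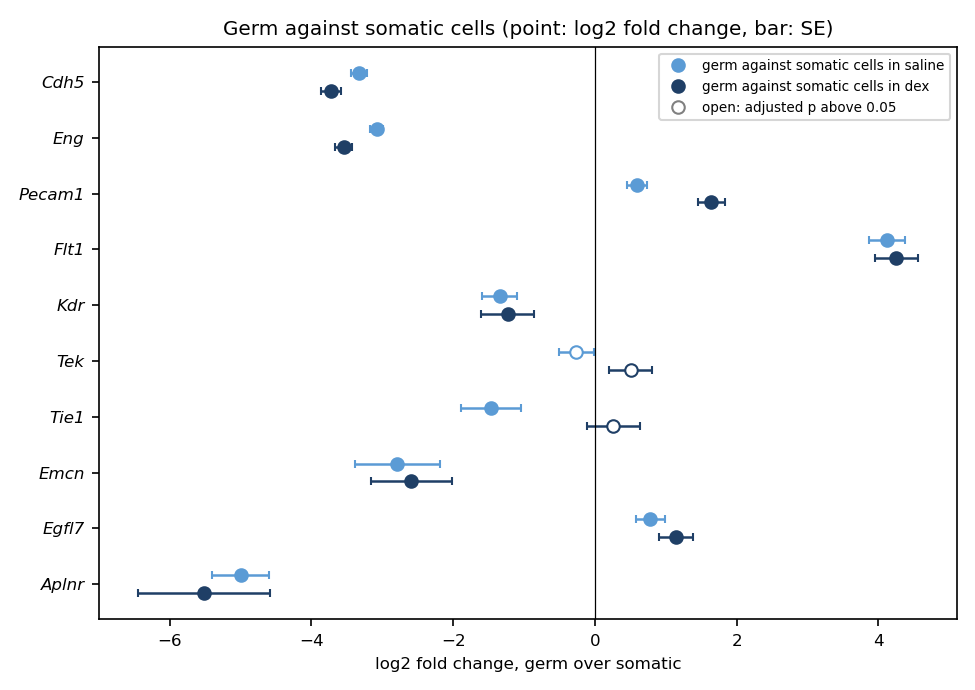
Log2 fold change of germ over somatic cells for the 10 genes, in saline (light) and dex (dark) animals; bars are SE and open points have an adjusted p above 0.05. Flt1 lies at 4.12 and 4.26 to the right of 0, and Cdh5, Eng and Aplnr lie at or below -3.08.

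Other endothelial genes were found on both sides, as were all genes tested, of which 39.8% were called higher and 36.7% lower in germ cells. Of 19 tested genes on a list of further endothelial genes, 8 were higher in germ and 11 lower in saline animals. The 8 with the largest differences were Clec14a, Cd34, Gpihbp1, Robo4, Calcrl, Esam and Tspan18, lower in germ cells, and Arhgef15, higher (5.38 on the log2 scale). Among 15 endothelial transcription factor genes, 5 were higher and 8 lower in germ cells. Hhex (5.12), Erg (4.70) and Tal1 (3.52) were higher by log2 fold change, and Nr2f2 (-7.19), Heyl (-4.75), Fli1 (-3.69), Sox18 (-2.63) and Sox17 (-2.28) lower. Erg, an ETS factor much used as a marker of endothelial nuclei, had 42.7 ± 1.67 CPM in saline germ and 1.62 ± 0.538 CPM in saline somatic cells. Of 12 arterial and venous genes 4 were higher and 5 lower, with Gja4, Esm1, Cxcr4 and Dll4 on the germ side and Cxcl12, Ephb4, Efnb2 and Jag1 the largest on the somatic side.

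The partners of the receptors were mostly on the somatic side, where 36.7% of all genes were called lower in germ cells and 39.8% higher. All 8 VEGF ligand and co-receptor genes in the table were tested in saline animals, and 7 were lower in germ cells (Vegfa, Vegfb, Vegfc, Vegfd, Pgf, Nrp1 and Nrp2), while the lymphatic VEGF receptor gene Flt4 was not called. Vegfa, the main VEGF ligand, had 19.8 ± 2.51 CPM in germ and 68.9 ± 3.30 CPM in somatic cells (log2 fold change -1.80). The Tek ligands Angpt1, Angpt2 and Angpt4 and the matrix protein gene Svep1 were lower in germ cells, and the receptor phosphatase gene Ptprb higher (0.66). On the list of the endoglin pathway 12 genes were lower and 3 higher of 18 tested, the 8 largest being Id2, Acvrl1, Id3, Tgfb2, Id1, Tgfb3, Tgfbr2 and Tgfbr3, all lower in germ cells. Apln, which encodes apelin, was higher in germ cells (7.20 ± 1.47 against 3.60 ± 1.53 CPM, log2 fold change 0.99, adjusted p 0.013), opposite to its receptor gene. Apela, the other ligand gene, had 1 to 6 counts summed over each group and was not tested. Of the leukocyte adhesion genes, Selp and Madcam1 were higher and Vcam1 and Icam1 lower in germ cells, and Selp had 0 counts in all 6 somatic libraries.

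Setting dex against saline in the somatic fraction asks which of the genes respond to treatment outside the germ line. Eng rose, and Aplnr and Tek fell. The edgeR test called these 3 of the 10 genes, where it called 3.91% of all 16766 genes tested, 2.74% higher and 1.17% lower. Dex and saline libraries did not overlap for 1 gene that was higher (9.38% of all genes) and for 4 that were lower (12% of all genes), where 21.3% of all genes did not overlap in either direction. The median log2 fold change of the 10, dex over saline, was -0.56, beside -0.01 for all genes. These libraries are bulk RNA, so fewer cells of a type and less RNA per cell cannot be told apart. The same saline somatic libraries served as the reference for the saline germ libraries above.

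Aplnr had 6.54, 6.19 and 7.43 CPM in the saline somatic libraries and 1.30, 1.17 and 2.27 CPM in the dex somatic libraries. The highest dex library stood far below the lowest saline library. The log2 fold change was -2.06 ± 0.35 (edgeR adjusted p 0.0028), and the ratio of the summed counts, saline over dex, was 4.22 (exact 95% counting interval 3.36 to 5.35). Aplnr was called in all 15 alternative fits. It fell further than the mean of the other low genes of the set, which was lower with dex too. The mean log2 CPM of the 7 genes other than Cdh5 and Eng was 2.63, 2.51 and 2.95 in saline and 2.35, 1.61 and 2.09 in dex somatic libraries. The log2 CPM of Aplnr minus that mean was 0.10, 0.14 and -0.04 in the saline and -1.87, -1.27 and -0.85 in the dex somatic libraries. For this difference all 3 dex libraries were below all 3 saline libraries.

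Eng had 250, 303 and 226 CPM in dex and 144, 151 and 165 CPM in saline somatic libraries. All dex libraries were above all saline libraries. The log2 fold change was 0.79 ± 0.10 (adjusted p 0.00032), or 1.69-fold on the mean CPM, and it was called in all 15 alternative fits. Fpgs shares 61 of the 4048 exonic bases of Eng on the other strand. Its log2 fold change was 0.25 ± 0.10 (adjusted p 0.24), from 46.1 ± 1.74 to 53.7 ± 2.08 CPM. Cdh5, the other abundant gene of the set, had 237, 302 and 219 CPM in dex and 222, 241 and 197 CPM in saline, and its groups overlapped (log2 fold change 0.23 ± 0.11, adjusted p 0.31).

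Tek had 3.74, 2.64 and 3.48 CPM in dex and 9.38, 5.71 and 8.31 CPM in saline somatic libraries. The groups did not overlap, with saline replicate 2 the nearest to dex, and the log2 fold change was -1.23 ± 0.29 (adjusted p 0.027). Its call was lost without dex somatic replicate 2 (adjusted p 0.094) or 3 (0.065), without saline somatic replicate 1 (0.15) or 3 (0.12), and with limma-trend on FPKM (0.11 and 0.10), always in the same direction. Tie1, its partner, had 3.62, 1.83 and 2.87 CPM in dex and 4.11, 4.70 and 8.50 CPM in saline, which did not overlap. It was not called (log2 fold change -1.04 ± 0.37, adjusted p 0.16).

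Pecam1 was just outside the threshold. It had 9.68, 7.20 and 11.7 CPM in dex and 15.98, 13.96 and 17.49 CPM in saline somatic libraries, again without overlap. Its log2 fold change was -0.71 ± 0.20 (adjusted p 0.069), and 6 of 15 alternative fits called it, with adjusted p from 0.011 to 0.23 over all of them. Of the VEGF receptors, Kdr had 13.5, 4.61 and 7.71 CPM in dex and 9.59, 15.3 and 12.05 CPM in saline, with overlap (-0.49 ± 0.30, adjusted p 0.45), and Flt1 had 1.502 ± 0.732 and 2.33 ± 1.06 CPM (-0.62 ± 0.54, adjusted p 0.65). Egfl7 had 6.44 ± 1.89 CPM in dex and 8.89 ± 2.36 CPM in saline (-0.45 ± 0.27, adjusted p 0.45). Emcn had 2.70 ± 0.580 and 2.82 ± 0.427 CPM (-0.03 ± 0.38, adjusted p 0.98).

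**Figure D4:**
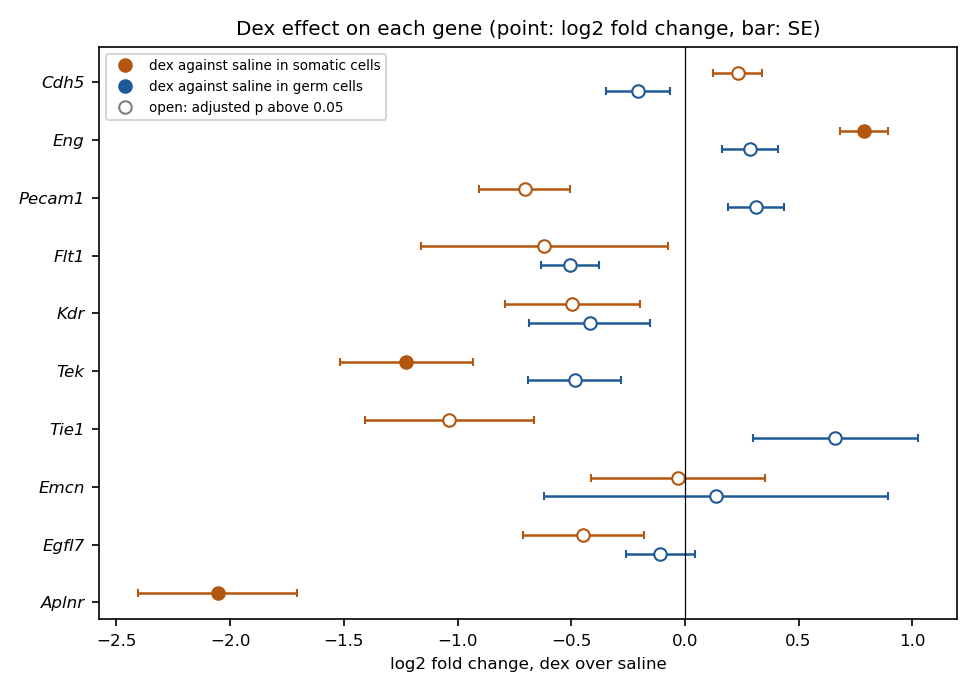
Log2 fold change of dex over saline for the 10 genes in somatic (orange) and germ (blue) cells; bars are SE and open points have an adjusted p above 0.05. The 3 filled points are Eng (0.79), Tek (-1.23) and Aplnr (-2.06) in somatic cells, and Aplnr has no germ cell point because it did not pass the filter on low counts there.

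Genes of the same pathways were read from lists, beside 2.74% of all genes called higher and 1.17% called lower. Of 19 further endothelial genes tested, 1 rose, Ramp2, a subunit of the adrenomedullin receptor (62.6 ± 6.35 to 84.1 ± 8.82 CPM, log2 fold change 0.45 ± 0.11, adjusted p 0.037), and 0 fell. The call of Ramp2 was lost in each of the 6 fits that left out 1 library (adjusted p 0.055 to 0.17), and it was called in 4 of 15 alternative fits. Of 14 endothelial transcription factor genes tested, 1 fell. This was Sox7, with 153 counts over the saline and 6 counts over the dex somatic libraries (log2 fold change -4.37 ± 0.96, adjusted p 0.016), and its call was lost without dex somatic replicate 2 or 3 (0.053 and 0.053) or saline somatic replicate 1 or 2 (0.068 and 0.074). The median was -0.08 over the first list and -0.37 over the second. Of 10 arterial and venous genes tested, Cxcl12, a chemokine gene of stroma and vessels, rose (349 ± 42.5 to 500.3 ± 60.99 CPM, 0.55 ± 0.10, adjusted p 0.0042), a call lost with limma-trend on FPKM (0.067 and 0.066).

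Among ligands and partners of the receptors, Angpt4 rose from 1.86 ± 0.571 to 5.96 ± 1.09 CPM (1.71 ± 0.34, adjusted p 0.0097), a call lost without dex somatic replicate 3 (0.053) and in the fit of all 12 libraries (0.13). Angpt4 encodes a ligand of Tek. Angpt1, the main activating ligand, had 4.89 ± 1.12 CPM in dex and 3.98 ± 0.469 CPM in saline (0.33, adjusted p 0.66), and Angpt2 3.73 ± 0.695 and 6.87 ± 0.934 CPM, without overlap (-0.85, adjusted p 0.12). None of the 8 VEGF ligand and co-receptor genes was called by edgeR, DESeq2 or limma-trend, and 4 had an unadjusted edgeR p under 0.05 (16.1% of all genes). Vegfa had 69.7 ± 9.60 CPM in dex and 68.9 ± 3.30 CPM in saline (0.04, adjusted p 0.89). On the endoglin pathway list 1 of 18 tested genes was called: Tgfbr3 (betaglycan), a co-receptor related to Eng, rose from 93.04 ± 13.0 to 173 ± 27.4 CPM (0.92 ± 0.12, adjusted p 0.00025) and was called in all 15 alternative fits. Apln had 2.01 ± 1.03 and 3.60 ± 1.53 CPM (-0.81, adjusted p 0.43). Vcam1, an adhesion molecule for leukocytes, rose from 16.8 ± 3.78 to 28.7 ± 3.78 CPM (0.80 ± 0.16, adjusted p 0.0097), a call lost without dex somatic replicate 2 (0.056) or saline somatic replicate 1 (0.053), with limma-trend on FPKM (0.13 and 0.12) and in the fit of all 12 libraries (0.20).

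**Figure D5:**
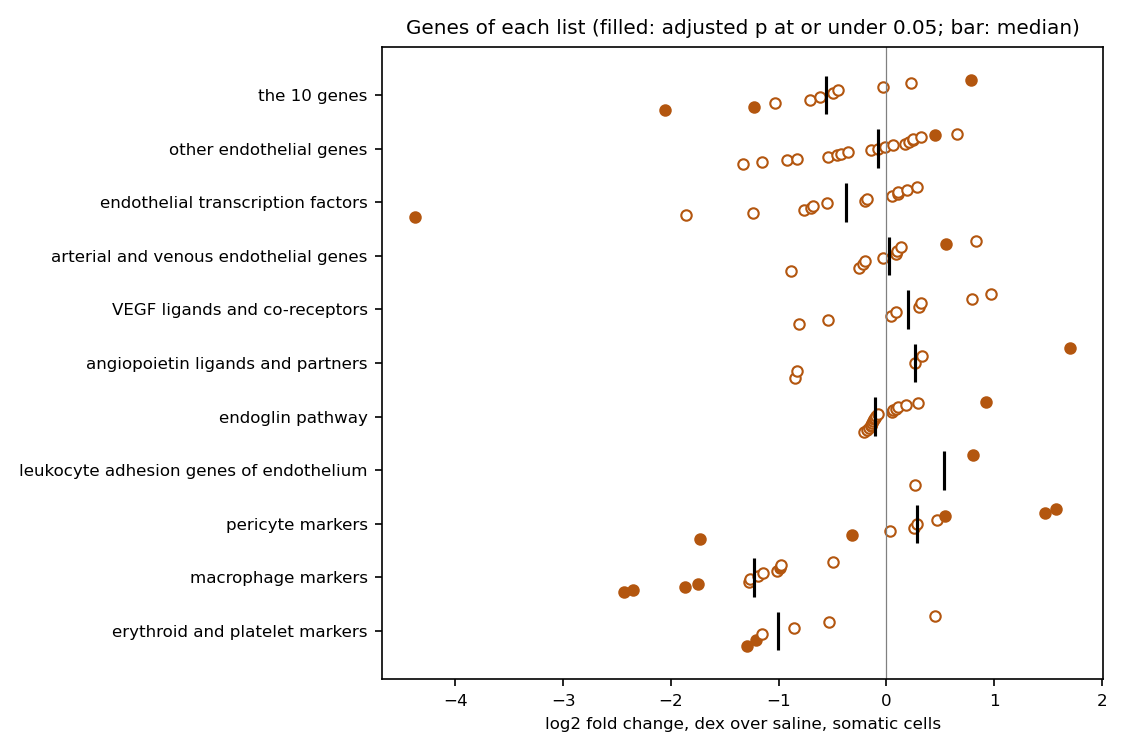
Log2 fold change of dex over saline in somatic cells for each tested gene of 11 lists, the first being the 10 genes described; filled points have an adjusted p at or under 0.05 and black bars are medians. The medians of the 10 genes (-0.56) and of the macrophage markers (-1.23) lie left of 0.

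Markers of other cells moved in the same somatic libraries. Of all genes tested here, 2.74% were called higher and 1.17% lower. All 12 macrophage markers were lower with dex by log2 fold change, and 5 were called lower (Mrc1, Lyz2, Csf1r, Cx3cr1 and Tyrobp). Their summed level was 26.5 to 39.9 CPM in dex and 64.6 to 113 CPM in saline libraries, with no marker at 0 in any of the 6 libraries. The 11 erythroid and platelet markers summed to 91.2 to 302 CPM in dex and 260.0 to 397 CPM in saline. Of 6 tested, 2 were called lower (Hbb-bs and Hbb-bt), and 2 to 5 of the 11 were at 0 in a library. DESeq2 called 6 macrophage markers and 1 erythroid or platelet marker lower. With limma-trend on FPKM these counts were 1 and 0. The platelet gene Pf4 had 20 counts over the dex and 50 over the saline libraries. Of 9 pericyte markers tested, 3 were called higher (Cspg4, Ndufa4l2 and Cox4i2) and 2 lower (Rgs5 and Mcam), and of 10 peritubular and stromal markers 3 were called higher (Acta2, Pdgfra and Dcn), with a sum of 3691 to 4216 CPM in dex and 2582 to 3278 CPM in saline. The part of these shifts in the values of Eng, Tek, Pecam1 and Aplnr was not tested. As a check of the treatment, 6 of 10 known glucocorticoid targets were called higher in somatic cells and 0 lower, where 2.74% of all genes were called higher. Zbtb16 was among the 6 (3.98 on the log2 scale). Fkbp5, another of the 10 targets, had 299.5 ± 20.2 CPM in dex and 272 ± 17.2 CPM in saline. In germ cells 2 of the 10 were called higher and 1 lower (0.739% and 0.507% of all genes).

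By the rule for similar patterns, the genes whose log2 CPM followed Aplnr most closely over the 6 somatic libraries included Rdh5, Hmcn2 and Per3, with Pearson's r of 0.986 to 0.995. The 5 nearest to the mean of the other 9 genes were Isoc2a, Dhh, Pcyox1l, Pif1 and Eif4a2, with r of 0.989 to 0.997. Among 12108 candidate genes, 258 and 192 had an r above 0.9 with Aplnr and with that mean, and the 6 points share a treatment split, so these names describe closeness in these libraries only.

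The same question was then put to the germ line. Here edgeR called none of the 9 genes tested, where it called 1.25% of 18550 genes (0.739% higher and 0.507% lower). Aplnr did not pass the filter on low counts, with 2 counts in dex and 13 in saline germ libraries, which did not overlap. The depth-scaled ratio of these sums, saline over dex, was 7.24 (exact 95% counting interval 1.64 to 66.1), an interval that does not cover the spread between libraries. At an unadjusted p under 0.05 there were 4 of the 9 (14.7% of all genes), DESeq2 called 1, Flt1, and limma-trend on FPKM called 0. Dex and saline libraries did not overlap for 2 genes that were higher, Eng and Pecam1 (10.5% of all genes), and 2 tested genes that were lower, Flt1 and Tek (9.55% of all genes), where 20% of all genes did not overlap in either direction. The median log2 fold change of the 9 was -0.11, beside -0.003 for all genes.

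Flt1, the gene of the 10 with the highest CPM in saline germ cells, had 28.6, 32.5 and 24.8 CPM in dex and 38.3, 36.98 and 46.3 CPM in saline germ libraries. All dex libraries were below all saline libraries, and the log2 fold change was -0.50 ± 0.13 (edgeR adjusted p 0.071). It passed the threshold with DESeq2 (adjusted p 0.011), with no filter on low counts (0.0057) and without dex germ replicate 2 (0.043), and ranged from 0.0057 to 0.46 over 15 alternative fits. Pecam1 had 27.98, 33.9 and 27.6 CPM in dex and 23.1, 23.1 and 25.6 CPM in saline (0.31 ± 0.12, adjusted p 0.24). Eng had 22.2 ± 0.984 and 18.2 ± 0.655 CPM (0.29 ± 0.12, adjusted p 0.30), and Tek 4.67 ± 0.104 and 6.51 ± 0.915 CPM (-0.48 ± 0.20, adjusted p 0.28). The other 5 had adjusted p from 0.43 to 0.96, with log2 fold changes from -0.42 (Kdr) to 0.66 (Tie1).

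From the lists, 4 endothelial and pathway genes were called in germ cells, where 1.25% of all genes tested were. There was 1 call among 13 further endothelial genes tested, 12 endothelial transcription factor, 19 endoglin pathway and 5 lymphatic genes. Among 12 arterial and venous, 8 VEGF, 3 angiopoietin, 1 apelin ligand and 3 leukocyte adhesion genes tested, 0 were called. Reln, a secreted protein gene on the lymphatic endothelial list, rose from 145 ± 14.1 to 202 ± 26.5 CPM (0.48 ± 0.10, edgeR adjusted p 0.031), and its alternatives were not run. Ets2, an ETS factor, rose from 30.0 ± 2.51 to 46.2 ± 3.64 CPM (0.62 ± 0.11, adjusted p 0.013), a call lost without saline germ replicate 1 (0.11) or 2 (0.076), with limma-trend on FPKM (0.092 and 0.095) and with the replicate number added to the fit as a block (0.055). Vwf, which encodes von Willebrand factor, rose from 13.9 ± 5.08 to 29.97 ± 9.51 CPM (1.09 ± 0.25, adjusted p 0.048) and was called in 4 of 15 alternative fits. Tgfb1, a ligand whose receptors Eng joins, fell from 113 ± 21.9 to 70.2 ± 8.41 CPM (-0.70 ± 0.12, adjusted p 0.013), a call lost without dex germ replicate 1 (0.057) or 3 (0.064) or saline germ replicate 1 (0.072), with limma-trend on FPKM (0.15 and 0.15) and with the replicate block (0.051). Vegfa had 29.4 ± 6.30 CPM in dex and 19.8 ± 2.51 CPM in saline germ cells (0.57, adjusted p 0.097).

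A contrast fitted to all 12 libraries tested whether the dex effect differed between the populations. Of the 10 genes 1 was called, Pecam1, where 0.827% of 20551 genes were (0.414% in each direction). Its dex effect in germ cells exceeded that in somatic cells by 1.05 ± 0.24 on the log2 scale (edgeR adjusted p 0.0496), every germ dex library lying above and every somatic dex library below its saline libraries. The call was lost in 10 of the 12 fits that left out 1 library (adjusted p 0.027 to 0.14 over the 12) and held only without dex somatic replicate 3 or saline somatic replicate 2. It was also lost with the replicate block (0.070), with DESeq2 size factors in edgeR (0.053) and with limma-trend on FPKM (0.13 and 0.095), so that 6 of 20 alternative fits called Pecam1. Tie1 (1.73 ± 0.59, adjusted p 0.20), Tek (0.77 ± 0.36, adjusted p 0.36), Eng (-0.47 ± 0.15, adjusted p 0.16) and Cdh5 (-0.40 ± 0.18, adjusted p 0.35) had an unadjusted p under 0.05 but were not called. For Aplnr the difference was -0.52 ± 0.83 (adjusted p 0.89), with 15 germ cell counts in all. Eng, Tek and Aplnr were called in somatic cells, but a difference of their dex effects from those in germ cells was not called. Of the endoglin pathway, Acvrl1 (-0.78 ± 0.17, adjusted p 0.047), a signalling receptor that works with Eng, and Tgfb1 (-0.85 ± 0.19, adjusted p 0.049) had a lower dex effect in germ than in somatic cells, and each lost its call in 10 of the 12 fits without 1 library and was called in 6 of 20 alternative fits.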

How the data were processed

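RNA-seq was performed on 12 libraries in 4 groups of 3, and groups and replicate numbers were taken from the labels. The authors selected polyA RNA, aligned paired-end reads to mm10 with HISAT2 2.0.5 and counted them with featureCounts 1.5.0-p3; the annotation release and the strand setting are not given in the sources used here. The deposited count table holds raw read counts per gene, and the authors also deposited FPKM, the count scaled to gene length and library depth. Deposited result tables (fold changes and p-values from DESeq2 1.20.0) were not used. Comparisons were fitted to counts with the quasi-likelihood test of edgeR 4.0.16 (R 4.3.3), two-sided, on the 6 libraries concerned, with TMM and filterByExpr at a minimum count of 10; the difference of the dex effects was a contrast over all 12. SE is the log2 fold change divided by the square root of F. FPKM was analysed with limma 3.58.1 (limma-trend on log2(FPKM + 0.1) or log2(FPKM + 1), which understates changes of low genes), and DESeq2 1.42.0 was an alternative. Log2 CPM used a prior count of 2. The test was tried on simulated counts. Genome positions are GRCm38; promoter windows are from RefSeq GRCm38.p6 and exon overlaps from GENCODE M21. Replicates pooled litters dosed separately, and p-values measure the spread between these pools.

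The 10 genes, the gene lists, the tests and the rule for named genes (all 10 genes; called genes of the endothelial and pathway lists, up to 8 a list by size of change; Vegfa, Angpt1, Angpt2, Apln and Apela; the 5 genes nearest in pattern, at an average log2 CPM of at least 2) were chosen with earlier results of these data known. The overlapping genes Fpgs, Agpat2 and Gm20532, and the Sertoli list without Dmrt1, were added after values were seen. Further lists were lymphatic endothelial markers (0 of 5 tested called in somatic cells by edgeR, with 1 at an unadjusted p under 0.05, and 0 by DESeq2; Reln called higher in germ cells), Leydig cell markers (1 of 6 called lower in somatic cells, Star) and Sertoli cell markers (0 of 10 called in somatic cells by edgeR, with 3 at an unadjusted p under 0.05, and 0 by DESeq2; Inha lower in germ cells). Some genes that the rule for similar patterns names are not reported here.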

Additional observations from a re-analysis of the deposited data

Results flagged for a closer look

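The dex effect on Pecam1 passed the threshold in a test of its difference between germ and somatic cells. Pecam1 in dex over saline was higher in germ and lower in somatic cells, by 1.05 ± 0.24 (SE) on the log2 scale for germ minus somatic, with an edgeR adjusted p of 0.0496, close to the threshold. The call was made in 6 of 20 alternative fits and was lost in 10 of the 12 that left out 1 library, with the replicate block (0.070), with DESeq2 size factors in edgeR (0.053) and with limma-trend on FPKM (0.13 and 0.095). Macrophage markers, whose cells also carry Pecam1, summed to 26.5 to 39.9 CPM in dex somatic and 64.6 to 113 CPM in saline somatic libraries, and to 15.8 to 18.6 and 11.3 to 15.4 CPM in dex and saline germ libraries. In germ libraries Mrc1, 1 of these markers, had 11.4 ± 1.38 CPM in dex and 6.13 ± 1.57 CPM in saline. Of 4 macrophage markers tested in germ cells, 1 was higher and 3 were lower with dex by log2 fold change. The part of macrophage markers in the Pecam1 difference was not tested.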

How the results depend on the processing

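The calls of Eng and Aplnr in somatic cells held in all 15 alternatives, and the calls of germ against somatic cells in saline in every alternative that tested the gene. Requiring at least 10 counts in every library left 7 of those 9 genes to be called in saline and 6 of 8 in dex, since the low ones were then not tested. The number of genes called with dex was 655 in somatic and 231 in germ cells, and 170 for the difference. Without a filter on low counts these were 1061, 767 and 706, with DESeq2 908, 674 and 620, with limma-trend on log2(FPKM + 0.1) 251, 6 and 57, on log2(FPKM + 1) 281, 12 and 149, and with at least 10 counts in every library 262 for the difference. Fitting all 12 libraries together gave 142 in germ cells. Leaving out 1 library gave 354 to 547, 49 to 265 and 79 to 172 genes, the lowest without saline somatic replicate 3, saline germ replicate 1 and saline somatic replicate 3. Scaled by library totals instead of TMM, the somatic calls split into 379 higher and 329 lower, against 459 and 196, and the median of all genes, germ over somatic in saline, moved from 0.07 to 0.21. Of the 10 genes, 1 was called in germ cells without the filter and with DESeq2 (0 otherwise), and 0 to 1 when a library was left out; for the difference 0 were called with DESeq2 size factors and with limma-trend on log2(FPKM + 0.1), and 0 to 1 when a library was left out. The main fits did not pair the samples by replicate number. Correlations of same-numbered deviations lay at -0.17 to 0.11, not above 0.1 for every pair in any comparison. For germ against somatic libraries they were 0.091, 0.115 and 0.102 in saline and 0.011, -0.027 and -0.015 in dex. In saline each germ library correlated best with the somatic library of its number, so this check does not settle whether those libraries are paired. With the replicate block 669 genes were called in somatic cells, 65 in germ cells and 104 for the difference, of which 0 were among the 10; Pecam1 in somatic cells was then called (adjusted p 0.033).

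Direction turned only for values near 0 or near the floor. Leaving out 1 library took Emcn to -0.21 to 0.11 in somatic cells and to -0.51 to 0.71 in germ cells, and the difference between populations to -0.45 to 0.75 for Emcn, -0.19 to 0.56 for Kdr, -0.29 to 0.38 for Flt1 and -3.11 to 0.0764 for Aplnr. On log2(FPKM + 0.1) the difference was -0.12 for Flt1 and 1.35 for Aplnr, and on log2(FPKM + 1) -0.28 and 0.88 (adjusted p 0.011 for Aplnr); a pseudocount shrinks the germ cell side, where Aplnr is at 0.0838 FPKM or less. The depth limits Aplnr in germ cells, at 15 counts, and Emcn there, at 1 to 17 counts a library. For Aplnr the counts were 13 with saline and 2 with dex, without overlap, a ratio of 7.24 (exact 95% counting interval 1.64 to 66.1, counting error only), and edgeR without the filter gave a log2 fold change of -2.57 ± 1.69 (adjusted p 0.65).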
